A study of Bos taurus with 30 samples.

Results

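ALOX5AP, ALOX15 and PTGIS encode proteins that make lipid mediators from arachidonic acid. The 3 genes were taken by symbol from the probe set annotation. Each was read by 1 probe set, 3 of the 24016 on the array that are not controls, and all 3 passed a filter on low signal that kept 13809. They were chosen with earlier results of these arrays known. Which values were used is not recorded, so every comparison that involves resistant skin at 48 h is taken as used, and its values are given as a description, with no p-value.

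RNA of skin was measured on Affymetrix arrays, and after infestation the skin came from the sites where ticks fed. The animals were an F2 generation of Gyr (Bos indicus) crossed with Holstein (Bos taurus), labelled tick resistant or tick susceptible. Resistant skin gave 5 arrays before infestation (0 h), 6 arrays after 24 h and 5 after 48 h, and susceptible skin gave 3, 6 and 5 arrays. They came from 13 animals, 6 resistant and 7 susceptible. Each later time followed infestation, and no uninfested animals of the same times were analysed here. The way animals were called resistant, their age and the tick species are not given in the sources.

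Eicosanoid is the common name for these mediators. Arachidonic acid freed from membranes is taken up by lipoxygenases, whose products include the leukotrienes, or by cyclooxygenases, whose product is turned into prostaglandins, thromboxane or prostacyclin. Leukotrienes attract leukocytes and make vessels leak, while prostacyclin widens vessels and keeps platelets from clumping. ALOX5AP is the membrane protein that presents arachidonic acid to the lipoxygenase ALOX5 and is found mainly in myeloid cells. ALOX15 is a lipoxygenase known from human eosinophils and from human macrophages exposed to type 2 cytokines. PTGIS is prostacyclin synthase, known from endothelial cells, smooth muscle and fibroblasts. The RefSeq gene table (ARS-UCD2.0) also lists ALOX12 as an older name of bovine ALOX15, and the array has separate probe sets annotated to ALOX12.

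The values are log2 MAS5 signals, in which array medians lay between 7.17 and 7.40, and a difference of 1 unit is a doubling. Precision is limited by the number of arrays, and the labels name no batch. By their numbers, the arrays of a group come from separate animals. Keratinocyte genes were bright in every array: the mean of 5 basal keratinocyte genes lay between 9.35 and 12.52. On the first principal component resistant animal 1 at 48 h lay farthest out, at 65.59, with the next highest array at 38.35. By 100 probe sets that vary from animal to animal, resistant arrays 3, 4 and 5 at 0 h matched later arrays of animals 4, 5 and 6 best. Changes from 0 h within an animal are therefore given with both numberings. The other 5 arrays at 0 h matched a later array of their own number best.

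ALOX5AP was highest in resistant skin at 48 h. At that time its signal was 10.54, 9.56, 8.49, 8.54 and 8.98 in resistant animals 1, 2, 3, 5 and 6, against 8.06, 7.55, 6.93, 8.26 and 8.12 in susceptible animals 7, 9, 10, 11 and 13. Every resistant array lay above every susceptible array, as did 0.543% of all probe sets kept, a share given for scale because the comparison was used in choosing the gene. The means were 9.22 ± 0.85 in resistant skin and 7.78 ± 0.55 in susceptible skin (SD, n = 5 each), a difference of 1.44 ± 0.38 (SE) or 2.71-fold. In a biopsy, more cells of a type and more RNA per cell cannot be told apart. Across all probe sets kept, limma called 0.0145% in this comparison, 2 of 13809, at an adjusted p under 0.05.

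Before infestation the groups of ALOX5AP overlapped. The signal was 8.56, 8.72, 9.32, 7.65 and 6.99 in resistant animals 1 to 5, against 7.83, 8.18 and 7.92 in susceptible animals 9, 10 and 11. Resistant arrays lay on both sides of the narrow susceptible range, and the difference was 0.27 ± 0.44 (SE, limma adjusted p = 1). At 24 h the lowest, median and highest were 6.98, 7.91 and 8.44 in resistant skin, against 7.21, 7.72 and 7.90 in susceptible skin. The difference was 0.19 ± 0.34 (SE, limma adjusted p = 0.99), with 3 of 6 resistant arrays above all susceptible ones. The 95% confidence intervals of these differences ran from -0.62 to 1.17 at 0 h and from -0.51 to 0.90 at 24 h. With 1 array left out, the 0 h difference lay between 0.0078 (without resistant animal 3) and 0.59 (without resistant animal 5), and the 24 h difference between 0.0585 and 0.35 (without resistant animals 4 and 5).

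**Figure D1:**
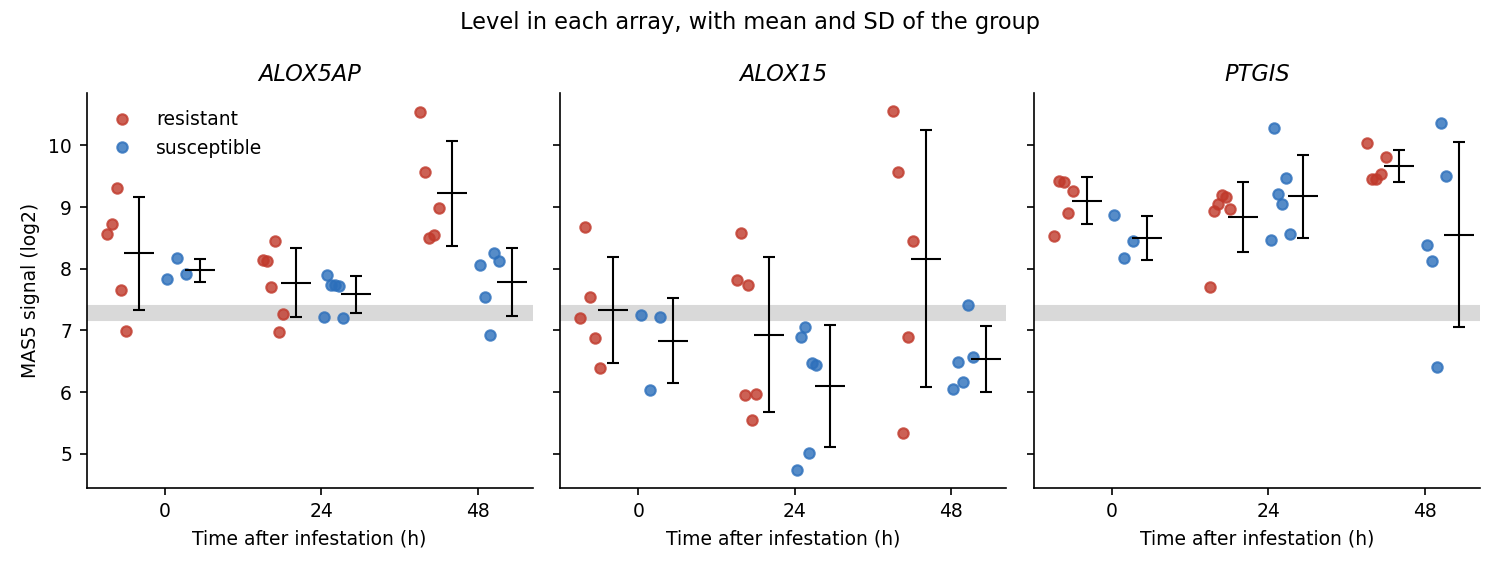
Log2 MAS5 signal of ALOX5AP, ALOX15 and PTGIS in each of the 30 arrays, by time after infestation and phenotype, with resistant animals in red and susceptible animals in blue. Black bars show the mean and SD of the group and the grey band the range of array medians (7.17 to 7.40). ALOX5AP separates the phenotypes at 48 h, while ALOX15 and PTGIS overlap at each time.

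Within resistant animals, ALOX5AP was higher at 48 h than at 24 h in each of the 5 animals sampled at both times. The change was 2.40 in animal 1, 1.43 in animal 2, 0.80 in animal 3, 1.56 in animal 5 and 1.72 in animal 6. The difference of group means was 1.45 ± 0.36 (SE), and the 48 h arrays did not overlap with the 24 h arrays, as for 0.492% of all probe sets kept. limma called 0% of 13809 probe sets for 48 h against 24 h, with 1332 at an unadjusted p under 0.05.

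Against 0 h the separation was less clean. The 48 h mean of ALOX5AP in resistant skin was 0.98 ± 0.38 (SE) higher, with 2 of 5 arrays above all 0 h arrays, and 0.65 without resistant animal 1 at 48 h. By the labelled numbers it was higher in 3 of 4 animals, and with the 3 numbers moved in 4 of 4, by 0.84 to 1.99. limma called 0% of probe sets for 48 h against 0 h, with 1522 at an unadjusted p under 0.05; with the animal as a fixed replicate block it called 84, and 108 with the 3 numbers moved. At 24 h the resistant mean was -0.47 ± 0.36 (SE) from that at 0 h (limma adjusted p = 1), with 4 of 5 animals lower by either numbering; it was -0.21 and -0.79 without the 0 h arrays numbered 3 and 5.

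In susceptible skin ALOX5AP did not pass the test between any times. The difference was -0.39 ± 0.42 (SE) at 24 h against 0 h, -0.19 ± 0.44 at 48 h against 0 h and 0.20 ± 0.36 at 48 h against 24 h, each with a limma adjusted p of 1. Of the 4 susceptible animals sampled at both 24 h and 48 h, 2 were higher and 2 lower at 48 h. Without the 48 h array of animal 10 the difference at 48 h was 0.0226 against 0 h and 0.41 against 24 h, and without that of animal 11 it was -0.31 and 0.0797. The 48 h change was 1.17 ± 0.58 (SE) larger in resistant than in susceptible skin, a value given with no test because it rests on the same 48 h arrays. The 24 h change differed by -0.08 ± 0.56 (SE, limma adjusted p = 1).

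**Figure D2:**
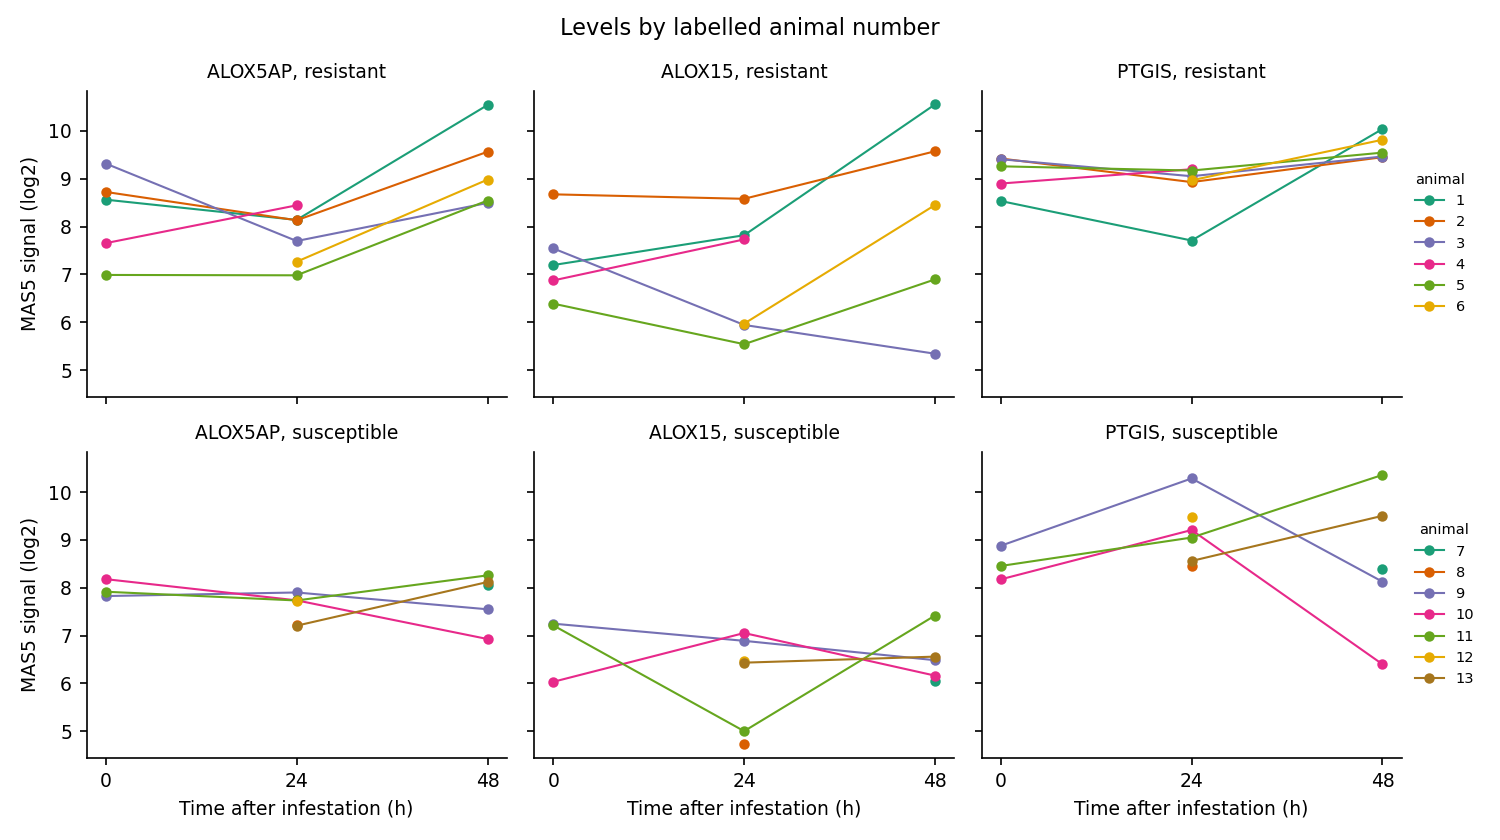
Log2 MAS5 signal of the 3 genes at 0, 24 and 48 h after infestation, with a line for each animal by its labelled number, resistant animals in the upper row and susceptible animals in the lower. ALOX5AP is higher at 48 h than at 24 h in all 5 resistant animals and in 2 of 4 susceptible animals; 3 resistant 0 h numbers are uncertain.

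ALOX15 varied most between arrays. At 48 h its signal was 10.55, 9.57, 5.34, 6.90 and 8.45 in resistant animals 1, 2, 3, 5 and 6, against 6.05, 6.49, 6.16, 7.42 and 6.56 in susceptible animals 7, 9, 10, 11 and 13. Animals 1, 2 and 6 lay above all susceptible arrays, animal 5 within them and animal 3 below them, so that the groups overlapped. The resistant range was 5.21 units, a 37.0-fold span, against 1.37 units in susceptible skin. The means were 8.16 ± 2.08 in resistant skin and 6.54 ± 0.54 in susceptible skin (SD, n = 5 each), a difference of 1.63 ± 0.72 (SE), and 1.03 without resistant animal 1 at 48 h.

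Much of the ALOX15 range lay near or under the array medians, where array signals are least certain. In 10 of 30 arrays ALOX15 reached its array's median: 3 of 5 resistant arrays at 0 h, 3 of 6 at 24 h and 3 of 5 at 48 h, and 1 susceptible array, animal 11 at 48 h. The gene therefore passed the filter on low signal mainly through resistant arrays.

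At the earlier times ALOX15 did not pass the test between phenotypes. Before infestation it was 7.20, 8.67, 7.54, 6.87 and 6.39 in resistant animals 1 to 5, against 7.25, 6.03 and 7.21 in susceptible animals 9, 10 and 11, a difference of 0.50 ± 0.83 (SE, limma adjusted p = 1). At 24 h the lowest, median and highest were 5.54, 6.85 and 8.58 in resistant skin, against 4.74, 6.45 and 7.05 in susceptible skin. That difference was 0.83 ± 0.65 (SE, limma adjusted p = 0.978), with 3 of 6 resistant arrays, those of animals 1, 2 and 4, above all susceptible ones. Animals 1 and 2 were thus high at both 24 h and 48 h. The 95% confidence intervals of the differences were -1.19 to 2.20 at 0 h and -0.51 to 2.17 at 24 h. The 0 h difference was 0.10 without susceptible animal 10 and 0.17 without resistant animal 2, and the 24 h difference was 0.50 without resistant animal 2.

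Over time in resistant skin, ALOX15 was 1.23 ± 0.69 (SE) higher at 48 h than at 24 h, with 4 of 5 animals higher. That difference was 0.63 without animal 1 at 48 h and 1.94 without animal 3 at 48 h. Against 0 h it was 0.83 ± 0.72 (SE) higher, and 0.23, 0.48 and 1.53 without animals 1, 2 and 3 at 48 h. By the labelled numbers 3 of 4 animals were higher at 48 h than at 0 h, and with the numbers moved 4 of 4, by 0.02 to 3.36. At 24 h the resistant mean was -0.40 ± 0.69 (SE) from that at 0 h (limma adjusted p = 1). With 1 array left out that value lay between -0.73, without animal 2 at 24 h, and -0.07, without animal 2 at 0 h.

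In susceptible skin the differences of ALOX15 were -0.73 ± 0.80 (SE) at 24 h against 0 h, -0.30 ± 0.83 at 48 h against 0 h and 0.44 ± 0.69 at 48 h against 24 h, each with a limma adjusted p of 1. The first was -1.13 without animal 10 at 0 h and -0.46 without animal 8 at 24 h, the second -0.70 and -0.0878 without animals 10 and 9 at 0 h, and the third 0.17 without animal 8 at 24 h. The 48 h change was 1.12 ± 1.09 (SE) larger in resistant skin, and 0.53 and 1.83 without resistant animals 1 and 3 at 48 h. The 24 h change differed by 0.33 ± 1.05 (SE, limma adjusted p = 1), and by 3e-04 without resistant animal 2 at 24 h and 0.73 without susceptible animal 10 at 0 h.

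PTGIS, the prostanoid enzyme, lay above the array median in 29 of 30 arrays and was uniform in resistant skin at 48 h. Its signal there was 10.04, 9.45, 9.46, 9.54 and 9.81 in animals 1, 2, 3, 5 and 6, against 8.39, 8.13, 6.40, 10.36 and 9.50 in susceptible animals 7, 9, 10, 11 and 13. The narrow resistant range fell inside the wide susceptible one, which spanned 15.5-fold from animal 10 to animal 11. The means were 9.66 ± 0.26 in resistant skin and 8.56 ± 1.50 in susceptible skin (SD, n = 5 each), a difference of 1.11 ± 0.45 (SE). Without susceptible animal 10 at 48 h the difference was 0.57.

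Before infestation PTGIS was 8.53, 9.42, 9.41, 8.90 and 9.26 in resistant animals 1 to 5, against 8.88, 8.17 and 8.45 in susceptible animals 9, 10 and 11. There 4 of 5 resistant arrays lay above all susceptible ones, and the difference of 0.60 ± 0.52 (SE) did not pass (limma adjusted p = 1; 95% confidence interval -0.46 to 1.66). At 24 h the lowest, median and highest were 7.71, 9.01 and 9.20 in resistant skin, against 8.46, 9.13 and 10.28 in susceptible skin. The sign of that difference was the opposite one, -0.34 ± 0.41 (SE, limma adjusted p = 0.978), and the value was -0.11 without resistant animal 1 and -0.11 without susceptible animal 9.

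PTGIS in resistant skin was 0.82 ± 0.43 (SE) higher at 48 h than at 24 h, and higher in 5 of 5 animals, by 0.37 to 2.33. It was 0.56 ± 0.45 (SE) higher at 48 h than at 0 h, and higher in 4 of 4 animals by either numbering. By the labelled numbers the changes were 1.51, 0.03, 0.06 and 0.29 in animals 1, 2, 3 and 5. With the 3 numbers moved they ran from 0.03 to 1.51, with a median of 0.60. The 48 h arrays lay above all 24 h arrays, as did 0.492% of all probe sets kept, and above all 0 h arrays, as did 1.02%. The gap to 0 h was narrow, with the lowest 48 h array at 9.45 and the highest 0 h array at 9.42. At 24 h the resistant mean was -0.27 ± 0.43 (SE) from that at 0 h (limma adjusted p = 1), -0.0411 without animal 1 at 24 h and -0.41 without animal 1 at 0 h.

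In susceptible skin PTGIS was higher at 24 h than at 0 h in 3 of 3 animals, by 0.59 to 1.41, and the difference of group means, 0.67 ± 0.50 (SE), did not pass (limma adjusted p = 1). From 24 h to 48 h the 4 animals went both ways, at -2.16 in animal 9, -2.81 in animal 10, 1.31 in animal 11 and 0.94 in animal 13. The difference of means was -0.62 ± 0.43 (SE) at 48 h against 24 h and 0.05 ± 0.52 at 48 h against 0 h, each with a limma adjusted p of 1. Without the 48 h array of animal 10 these were -0.0795 and 0.59, without that of animal 11 they were -1.07 and -0.40, and without the 24 h array of animal 9 the first was -0.40. The 24 h change differed between phenotypes by -0.94 ± 0.66 (SE, limma adjusted p = 1). The 48 h change differed by 0.51 ± 0.69 (SE), by -0.03 without the 48 h array of susceptible animal 10, by 0.96 without that of animal 11, and by 0.32 without the 0 h array of susceptible animal 9.

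**Figure D3:**
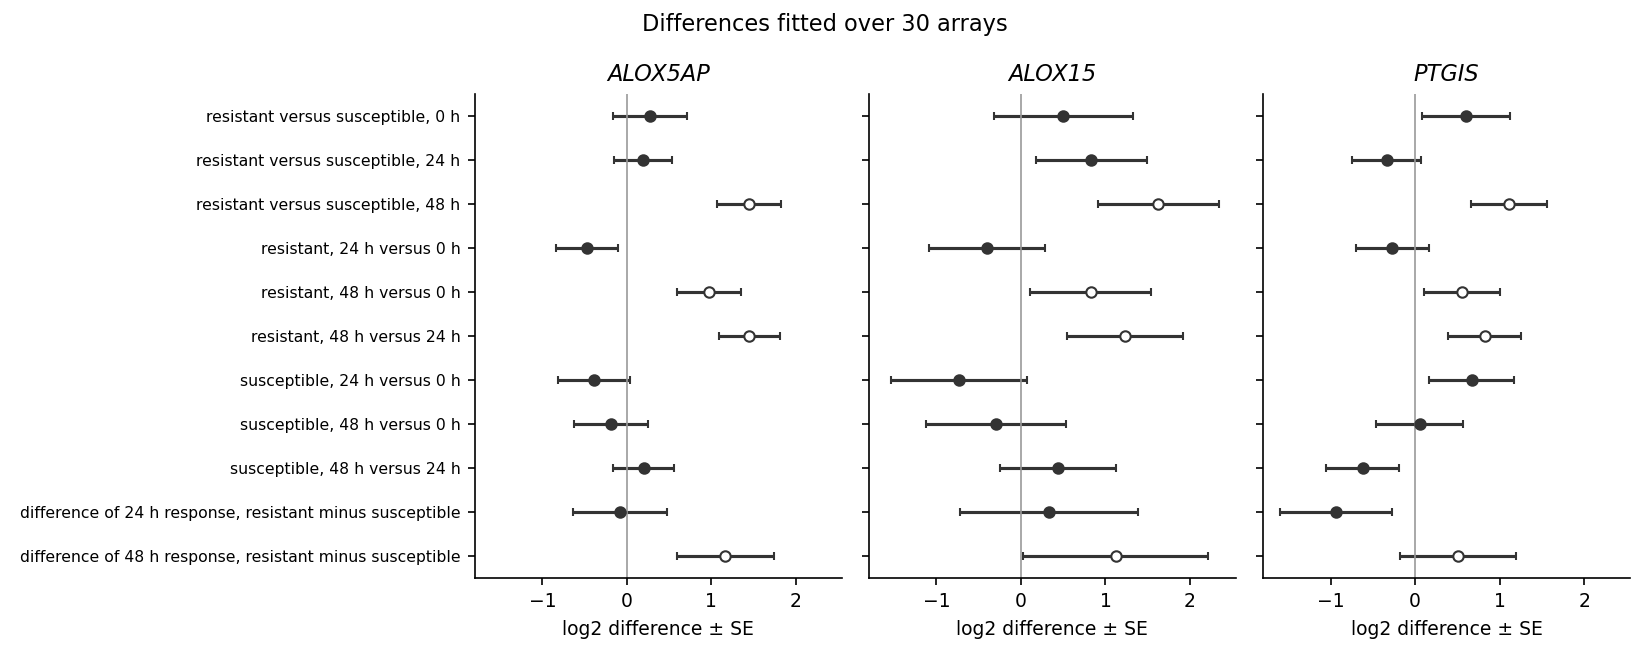
Log2 differences of the 3 genes with their SE in 11 comparisons, from 1 limma fit over 30 arrays. Filled points were tested and open points rest on the resistant 48 h arrays and carry no test; the largest values are the open ones of ALOX5AP, at 1.44 and 1.45, and of ALOX15, at 1.63 and 1.23.

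In the 7 comparisons tested, limma called 0% of the 13809 probe sets, and none of the 3 genes. For phenotypes, 623 had an unadjusted p under 0.05 at 0 h and 608 at 24 h. For times, 652 did in resistant skin at 24 h against 0 h, and 318, 131 and 259 in susceptible skin at 24 h against 0 h, 48 h against 0 h and 48 h against 24 h. For the difference of the 24 h change there were 255. The lowest unadjusted p among the genes was 0.162, for PTGIS in susceptible skin at 48 h against 24 h. For the difference of the 48 h change, limma also called 0%, with 405 at an unadjusted p under 0.05.

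Ordered by group mean, ALOX5AP ran from resistant skin at 48 h (9.22) to resistant 0 h (8.25), susceptible 0 h (7.97), susceptible 48 h (7.78), resistant 24 h (7.78) and susceptible 24 h (7.58). The step below resistant 48 h, 0.98 with all arrays and 0.65 without animal 1, is the description given above. Each later step was smaller than the larger SD of its pair. ALOX15 ran from resistant 48 h (8.16) to resistant 0 h (7.33), resistant 24 h (6.93), susceptible 0 h (6.83), susceptible 48 h (6.54) and susceptible 24 h (6.10), with no step larger than the SD. All 3 resistant groups stood above all 3 susceptible ones for this gene, which passed the filter mainly through resistant arrays. The step from resistant 24 h to susceptible 0 h was 0.0985, against a larger SD of 1.26 in that pair. Resistant skin at 48 h is also taken as used in choosing the gene, so this order is a description. PTGIS ran from resistant 48 h (9.66) to susceptible 24 h (9.17), resistant 0 h (9.10), resistant 24 h (8.84), susceptible 48 h (8.56) and susceptible 0 h (8.50), again with no step larger than the SD.

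The 2 lipoxygenase pathway genes followed each other more closely than either followed PTGIS. Over the 30 arrays, which share animals, Pearson's r was 0.77 (Spearman's rho 0.69) between ALOX5AP and ALOX15, 0.47 (0.45) between ALOX5AP and PTGIS and 0.33 (0.31) between ALOX15 and PTGIS. After group means were removed, r was 0.70, 0.36 and 0.24. Without resistant animal 1 at 48 h, the highest array for both genes, r between ALOX5AP and ALOX15 was 0.68. These are descriptions of the arrays, with no test.

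The genes most like ALOX5AP over the 30 arrays by Pearson's r were TYROBP (0.91), a signalling adaptor of myeloid and natural killer cells, RNASE6 (0.89), an antimicrobial ribonuclease, BCL2L15 (0.87), of the BCL2 family, DOK2 (0.87), an adaptor of blood cells, and FOLR2 (0.87), a folate receptor known from human macrophages. Those most like ALOX15 were NCF1 (0.86), a cytosolic subunit of the phagocyte oxidase, CORO1A (0.83), an actin regulator of leukocytes, RAC2 (0.80), a small GTPase of blood cells, CCR3 (0.80), the eotaxin receptor of eosinophils, and PIP4K2A (0.79), a lipid kinase. Those most like PTGIS were TPST1 (0.89), a tyrosine sulfotransferase, SLC13A4 (0.87), a sulfate carrier, TIMP2 (0.85), an inhibitor of matrix proteases, OGN (0.85), a matrix proteoglycan, and CTSK (0.85), a collagen degrading protease. Without resistant animal 1 at 48 h these 15 correlations lay between 0.71 and 0.88.

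Markers of several cell types moved with the genes. Of 16 macrophage genes listed 11 were kept. Their mean lay between 9.23 and 10.29 in resistant skin at 48 h, against 6.93 to 9.06 in susceptible skin. These groups did not overlap, as for 0.543% of single probe sets kept with resistant skin higher. No such share was computed for means of genes. All 11 were higher in resistant skin at 48 h, by a median of 1.42, and limma called none of them. Of 7016 genes 46% were higher, with a median of -0.02, shares given for scale. The marker lists were chosen with earlier results of these arrays known, so their counts at 48 h are descriptions. Across 30 arrays the r of ALOX5AP with the macrophage mean was 0.90, and 0.86 after group means were removed. In susceptible animal 10 at 48 h ALOX5AP and the macrophage mean were both at their lowest of all arrays. The part of macrophage number in the ALOX5AP difference was not tested.

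For eosinophils, 1 listed gene besides ALOX15 was kept, CCR3. At 48 h CCR3 was 9.16, 8.01, 5.36, 5.92 and 6.80 in resistant animals 1, 2, 3, 5 and 6, against 6.24, 6.20, 5.53, 6.38 and 6.75 in susceptible animals 7, 9, 10, 11 and 13. The resistant animals took the same order as for ALOX15. The highest susceptible CCR3 value at any time, 7.07 in animal 9 at 24 h, lay under the lowest array median, 7.17. CCR3 therefore passed the filter on low signal through resistant arrays. Most of its values lay under the array medians, where array signals are least certain. CCR3 was about as close to ALOX5AP: r over 30 arrays was 0.80 with ALOX15 and 0.79 with ALOX5AP, and 0.79 and 0.82 after group means were removed. The granule genes EPX, PRG2 and RNASE3 were not found on the array by symbol. Of 11 mast cell and basophil genes 3 were kept, TPSB2, FCER1A and KIT. Their mean was 7.62 to 9.27 in resistant skin at 48 h against 5.95 to 7.73 in susceptible skin. In that order the 3 genes averaged 7.51, 7.19 and 10.68 in resistant skin, against 5.43, 5.62 and 10.52 in susceptible skin. The r of their mean over 30 arrays was 0.51 with ALOX15 and 0.76 with ALOX5AP. After group means were removed it was 0.39 and 0.74. For ALOX15, r was 0.64 with the macrophage mean, 0.52 with the T and natural killer cell mean and 0.50 with the fibroblast mean. It was 0.42 with the endothelial mean, 0.37 with the smooth muscle mean and -0.08 with the neutrophil mean. With group means removed, these values were 0.52, 0.60, 0.41, 0.57, 0.37 and -0.11. The part of these cells in the ALOX15 and ALOX5AP values was not tested.

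For PTGIS, the mean of 11 fibroblast genes lay between 12.25 and 12.98 in resistant skin at 48 h, against 10.94 to 12.73 in susceptible skin. Susceptible animal 10 was lowest in both, at 10.94 for the fibroblast mean, and animal 11 was the highest susceptible array at 48 h in both. The r of PTGIS with the fibroblast mean over 30 arrays was 0.66, and 0.42 without animal 10 at 48 h. The macrophage mean was about as close to PTGIS, with an r of 0.63, and 0.48 without that array, and the fibroblast mean was as close to ALOX5AP, with an r of 0.65. The mean of 7 smooth muscle genes had an r of 0.20 with PTGIS. In resistant skin all 7 were higher at 48 h, with a median difference of 0.67 from 0 h and 0.50 from 24 h. Of all 7016 genes, 47.3% and 48.1% were higher in these comparisons. In susceptible skin all 7 were higher too, with medians of 0.18 and 0.55, where 47.5% and 54.9% of all genes were higher. Between phenotypes at 48 h, 3 of the 7 were higher and 4 lower in resistant skin, with a median of -0.01. In none of these comparisons did limma call any of the 7. The mean of 7 endothelial genes lay between 9.17 and 9.88 in resistant skin against 9.13 to 10.21 in susceptible skin, and overlapped. Its r was 0.41 with PTGIS and 0.45 with ALOX5AP. Without susceptible animal 10 at 48 h these were 0.51 and 0.46. With that array left out, the endothelial mean was thus closer to PTGIS than the fibroblast mean (0.42) or the macrophage mean (0.48). The mean of 5 neutrophil genes, at 8.62 to 10.53 in resistant skin against 7.72 to 10.11 in susceptible skin, overlapped too. Its r was -0.15 with ALOX5AP and -0.41 with PTGIS, and -0.18 and -0.61 after group means were removed. The mean of 9 T and natural killer cell genes was 6.64 to 8.30 in resistant skin against 6.93 to 7.93 in susceptible skin. Its r was 0.58 with ALOX5AP and 0.22 with PTGIS, and 0.73 and 0.33 after group means were removed. Keratinocyte genes correlated negatively with the 3 genes. The mean of 5 basal keratinocyte genes lay between 9.35 and 11.95 in resistant skin at 48 h against 11.003 to 12.52 in susceptible skin, lowest in resistant animal 1 and highest in susceptible animal 10. Its r over 30 arrays was -0.66 with PTGIS, -0.48 with ALOX5AP and -0.47 with ALOX15, and -0.68, -0.16 and -0.19 without resistant animal 1 at 48 h. The mean of 4 differentiated keratinocyte genes lay between 9.53 and 11.35 in resistant skin at 48 h against 10.08 to 12.03 in susceptible skin. At that time 3 of the 4 were lower and 1, TGM3, was 0.59 higher in resistant skin, with none called by limma. The r of their mean was -0.67 with ALOX5AP, -0.47 with ALOX15 and -0.49 with PTGIS, and -0.53, -0.28 and -0.44 without resistant animal 1 at 48 h. The part of these cell types in the values of the 3 genes was not tested.

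**Figure D4:**
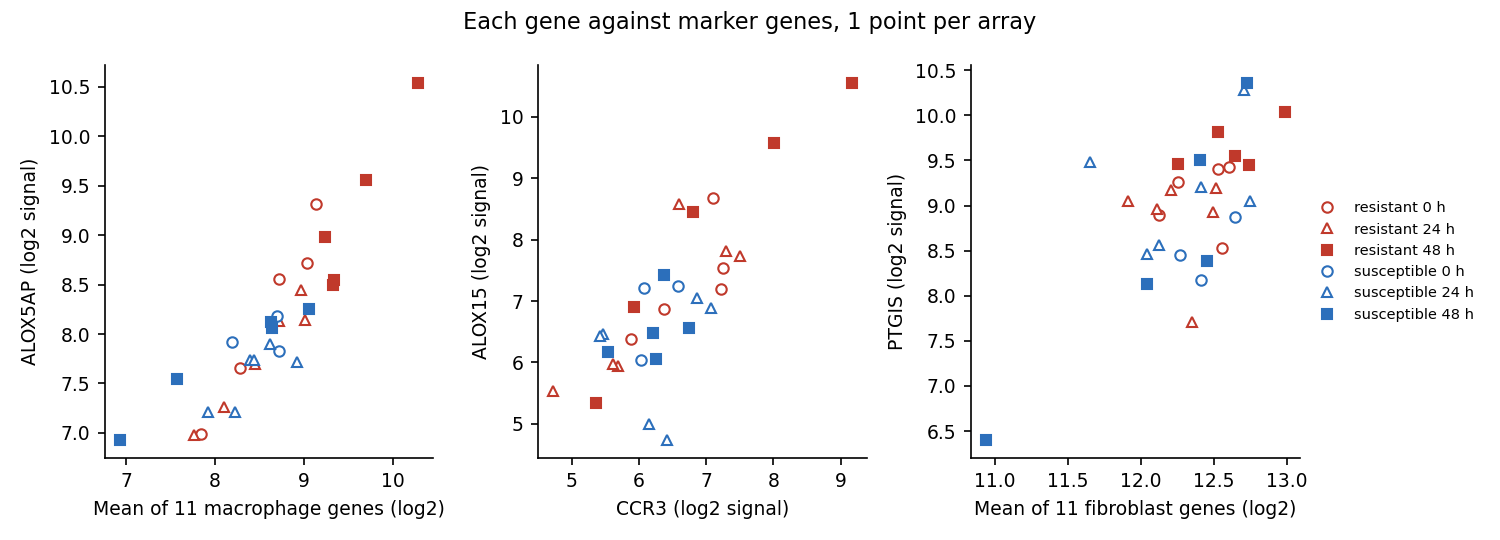
ALOX5AP against the mean of 11 macrophage genes, ALOX15 against CCR3 and PTGIS against the mean of 11 fibroblast genes, all as log2 signal with 1 point per array, resistant in red and susceptible in blue. Filled squares are 48 h arrays. Pearson's r is 0.90, 0.80 and 0.66. The point at the lower left of the PTGIS panel is susceptible animal 10 at 48 h, without which r in that panel is 0.42. CCR3 lay under the array median in every susceptible array.

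The other pathway genes lay on both sides of 0 at 48 h. Of 74 eicosanoid genes listed, 38 were on the array by symbol and 25 were kept, 22 besides the 3 described. Of these 22, 10 were higher and 12 lower in resistant than in susceptible skin at 48 h, with a median of -0.01, against 1.11 to 1.63 for the 3 genes, which were chosen on such values. limma called none of the 22, with a lowest adjusted p of 0.439. At 0 h 14 and at 24 h 13 of the 22 were higher in resistant skin, and none was called in any of the 11 comparisons.

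Among genes of leukotriene synthesis, LTA4H, which makes leukotriene B4, averaged 10.67 ± 0.32 in resistant skin and 10.43 ± 0.26 in susceptible skin at 48 h (SD, n = 5 each). The difference was 0.24 ± 0.14 (SE, limma adjusted p = 0.551). MGST2, a membrane enzyme that can make leukotriene C4, differed by 0.59 ± 0.35 (SE, limma adjusted p = 0.567) at 48 h and by 0.60 ± 0.32 at 24 h (limma adjusted p = 0.978). Both probe sets of ALOX5, the enzyme that ALOX5AP serves, lay under the array median in all 30 arrays, at 1.60 to 6.73 and 0.70 to 5.94, and were not tested. LTC4S, the main leukotriene C4 synthase, was not found by symbol. ALOX12E, a lipoxygenase known from mouse epidermis and named after its values were seen, differed by 1.53 ± 0.80 (SE) at 24 h (limma adjusted p = 0.978) and by -0.12 ± 0.88 at 48 h (limma adjusted p = 0.979).

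Among prostanoid genes, PTGS1, the constitutive cyclooxygenase, differed by 0.34 ± 0.30 (SE, limma adjusted p = 0.73) at 48 h, and PTGES, a prostaglandin E synthase, by 0.45 ± 0.24 (SE, limma adjusted p = 0.513). PRXL2B, a prostamide and prostaglandin F synthase, differed by -0.01 ± 0.18 (SE). Of the 3 probe sets of PTGS2, the inducible cyclooxygenase, 1 reached the array median, in 1 of 30 arrays, as did 1 of 3 of TBXAS1, thromboxane synthase, and neither gene was tested. HPGDS, a prostaglandin D synthase of mast cells, was not found by symbol.

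Of release, receptor and breakdown genes, ANXA1, a protein that restrains arachidonic acid release, differed by 0.14 ± 0.09 (SE, limma adjusted p = 0.597) at 48 h. PLAA, a phospholipase A2 activating protein, differed by -0.25 ± 0.18 and PLA2G12A, a secreted phospholipase, by -0.05 ± 0.11 (SE). PTGER4, a prostaglandin E receptor, differed by 0.06 ± 0.14 (SE, limma adjusted p = 0.924) and PTGFR, the prostaglandin F receptor, by 0.78 ± 0.45 (SE, limma adjusted p = 0.563). HPGD, which breaks down prostaglandins, had the lowest adjusted p of the 22 at this time, 0.439 by limma, at 11.49 ± 0.38 in resistant skin and 10.91 ± 0.33 in susceptible skin (SD, n = 5 each). EPHX2, an epoxide hydrolase, differed by -0.02 ± 0.25 and PTGR2, a prostaglandin reductase, by -0.20 ± 0.23 (SE).

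**Figure D5:**
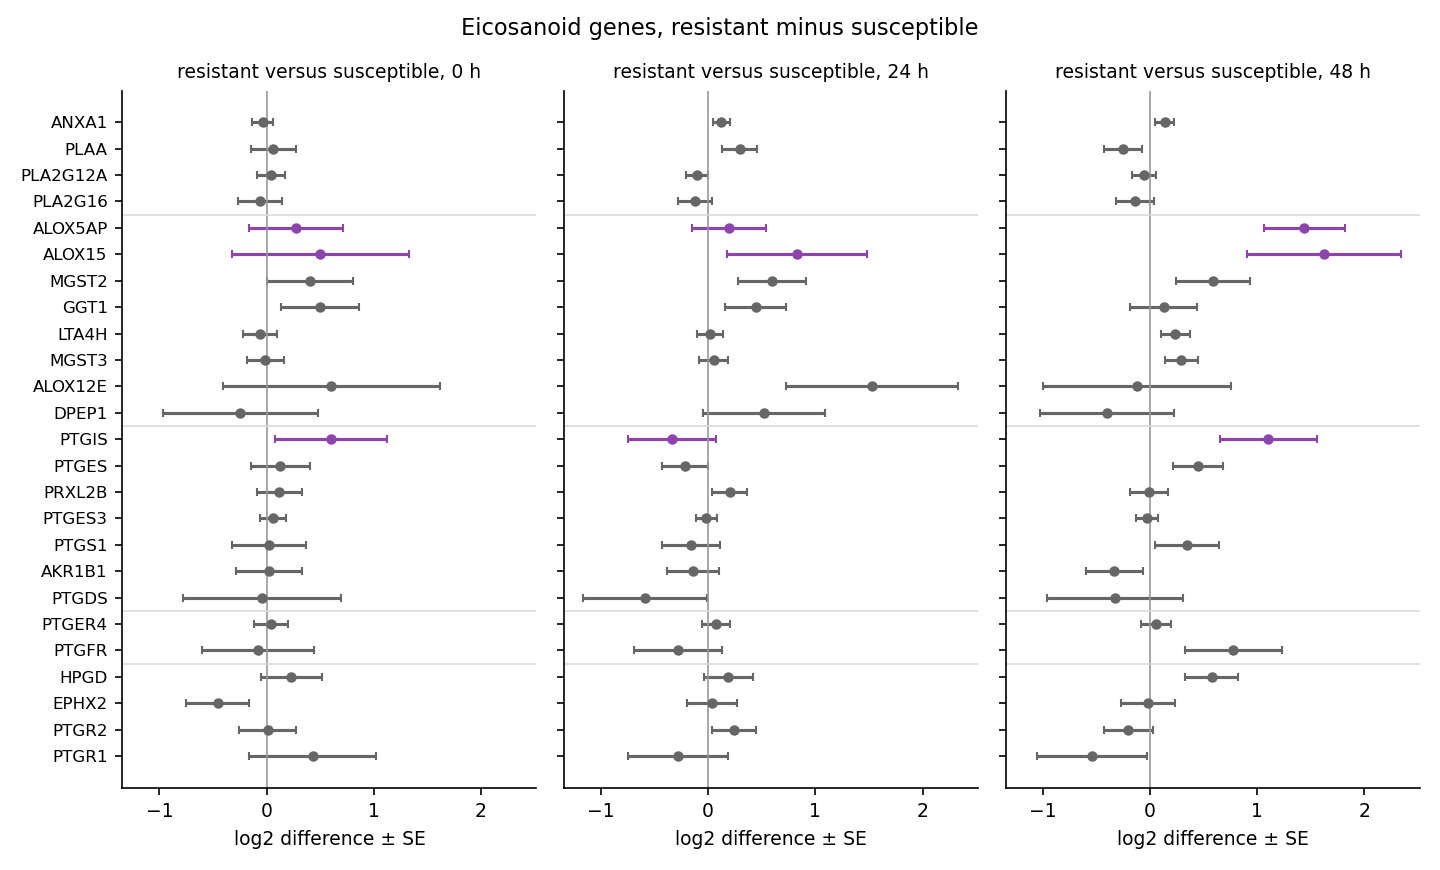
Log2 differences, resistant minus susceptible, with their SE for 25 eicosanoid genes at 0, 24 and 48 h, in the order release, lipoxygenase, prostanoid synthesis, receptors and breakdown. The 3 genes described are in purple; at 48 h they lie between 1.11 and 1.63 and the other 22 between -0.54 and 0.78.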

How the data were processed

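The authors deposited 1 table of log2 signal values, made with MAS5 per the submitters' processing notes; no version is given. RNA was labelled with a 3' IVT kit per the labels' protocols. The trimmed mean of the linear signal was the same in all 30 arrays. The log2 values were used as deposited. The table has 24128 probe sets; the 112 controls were removed, and the filter kept 13809 that reached the array median in 3 or more arrays. Symbols came from the supplied probe annotation (13292 probe sets with 1 symbol, 86 with several, 10638 with none).

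A linear model of the 6 group means was fitted to all 30 arrays (limma 3.58.1, R 4.3.3, eBayes with an intensity trend). Tests were two-sided, with Benjamini-Hochberg adjustment over the probe sets kept and a threshold of 0.05. Lists take the brightest kept probe set of a gene. The fit was tested on simulated data.

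The genes and lists were chosen with earlier results of these data known. Pathway genes named are the 3 of each list with the smallest p over the 6 groups, named partners of the 3 (ALOX5, LTA4H, LTC4S, PTGS1, PTGS2, HPGDS, TBXAS1), and ALOX12E. Likeness is the 5 highest Pearson correlations. Same-numbered arrays come from 1 animal per the labels, so the arrays pair by animal, with 3 numbers uncertain. Alternatives were quantile and median scaling, no filter, an offset of 16, the animal as a replicate block, only the groups compared, no trend, array weights and leaving out each array. No sequence is shown, since no sequence file was used here. Plots used matplotlib 3.10.9.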

Additional observations from a re-analysis of the deposited data

Results flagged for a closer look

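Of 15 groups of 4 to 10 arrays tested over the 3 genes, 1 held an array far from the rest, where chance flags about 1 in 20. PTGIS in resistant animal 1 at 24 h was 7.71, against 8.93 to 9.20 in the other 5 resistant arrays at that time. Among resistant arrays, the same animal was also lowest at 0 h, at 8.53, and highest at 48 h, at 10.04. Without its 24 h array, PTGIS in resistant skin at 24 h differed by -0.11 from susceptible skin (-0.34 with it) and by -0.0411 from resistant skin at 0 h (-0.27 with it). PTGIS was then 0.60 higher in resistant skin at 48 h than at 24 h, against 0.82 with it.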

How the results depend on the processing

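The 33 differences of the 3 genes were each recomputed under the other settings and with each array of the groups compared left out, which gave 696 values in all. Of these 686 kept their direction and, where tested, their side of the threshold, and 10 changed sign. The lowest adjusted p of a tested difference under any alternative was 0.751. One sign change came with array weights, PTGIS in susceptible skin at 48 h against 0 h (-0.002). The others came from leaving out 1 array: that PTGIS difference (range -0.40 to 0.59), PTGIS in the difference of the 48 h change (-0.0335 to 0.956), ALOX5AP in susceptible skin at 48 h against 0 h (-0.31 to 0.0226) and ALOX5AP in the difference of the 24 h change (-0.40 to 0.18). The cause was not tested. With animal numbers as a fixed replicate block and 3 numbers moved, ALOX15 in resistant skin was 1.36 higher at 48 h than at 0 h, and no tested difference of the 3 genes passed with the block. Using another probe set of a gene was not possible, since each gene has 1.

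Counts of probe sets called depended more on the settings. At 48 h between phenotypes limma called 10 with median centring, 4 with no filter, 0 with only the groups compared, 0 with array weights and 0 to 14 without 1 array at 48 h (14 without susceptible animal 11, 9 without resistant animal 6, 1 without susceptible animal 7 or 9, and 0 without resistant animal 1, 2, 3 or 5 or susceptible animal 10). In resistant skin at 48 h against 0 h it called 2 with the animal as a random replicate block, 84 with it as a fixed block, 108 with numbers moved and 0 to 2 without 1 array. At 48 h against 24 h it called 16 with numbers moved and 0 to 1 without 1 array, and at 24 h against 0 h 0 to 2 without 1 array. The cause was not tested. With 3 susceptible arrays at 0 h, comparisons with that group were the least precise.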

Other observations

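After group means were removed, the means of animals took up 60.8% of the variation of ALOX15, 52.0% for ALOX5AP and 33.5% for PTGIS. The median over all probe sets kept was 51.2%. These shares use the labelled animal numbers, of which 3 are uncertain. With 13 animals in 30 arrays, such a share is large even if animals do not differ. The shares therefore do not measure an effect of the animal. In the fit with the animal as a random replicate block, the consensus correlation between arrays of the same animal was 0.143. In variability over the 30 arrays, ALOX15 stood at the percentile 99.0 of the probe sets kept, ALOX5AP at 95.3 and PTGIS at 95.1. These ranks include the resistant 48 h arrays, taken as used in choosing the genes, and are a description only. In mean level ALOX15 stood at the percentile 7.0, in the low range where array signals are least certain.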
